A study of Arabidopsis thaliana and Arabidopsis lyrata subsp. lyrata and Arabidopsis halleri subsp. gemmifera with 10 samples.

Results

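Transcript signals of 39 genes that build or loosen the plant cell wall were compared in leaves of 2 interspecific Arabidopsis hybrids and their 3 parent species. The genes were chosen by symbol, as expansins, xyloglucan endotransglucosylase/hydrolases (XTH), cellulose synthases (CESA), cellulose synthase-like genes (CSL), pectin methylesterases (PME) and SKU5. They account for 39 of the 22746 probe sets other than controls, each gene with 1 probe set that names no other gene. The set holds 18 expansin and expansin-like genes, 9 XTH, 7 CSL, 4 PME and SKU5. No CESA probe set was among those named here, and 2 probe sets shared by several genes, with a symbol that fits the rule, were left out. The gene table lists 116 genes whose symbol fits the rule, so these 39 are a part of the families.

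The 5 groups were a hybrid of A. thaliana and A. lyrata (the lyrata hybrid), a hybrid of A. thaliana and A. halleri (the halleri hybrid), A. halleri ssp. gemmifera, A. lyrata ssp. lyrata and A. thaliana of the accession Col. Each group had 2 biological replicates on 1 array each. Plants were kept at 22 C with 16 h of light, no treatment is named, and mature leaves were taken before flowering. The sources used here give neither plant age nor pooling, cross direction or ploidy. Replicates are labelled biological without naming plants, so p-values measure the spread between arrays alone.

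The wall of a growing leaf cell is a network of cellulose, hemicelluloses such as xyloglucan and mannan, and pectin. CESA proteins make cellulose at the plasma membrane, while CSL proteins make hemicellulose backbones in the Golgi, with the CSLA family linked to glucomannan and the CSLC family to the glucan backbone of xyloglucan. XTH enzymes cut xyloglucan and rejoin or hydrolyse it, expansins loosen the contact between cellulose and hemicellulose without cutting either, and pectin methylesterases remove methyl groups from pectin, which alters its stiffness.

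Signals below are MAS5 values rescaled so that each array has a mean of 500 after trimming 2% at each end, in arbitrary units. Deposited trimmed means were about 500 on 5 arrays and 24.3 to 136.4 on the other 5 (both of A. lyrata, both of the lyrata hybrid and the second of A. thaliana). This split is called the scale class below, scaled or unscaled. Against the 18 spike-in control probe sets of the same arrays, leaf signal was also uneven, since after rescaling the controls were brighter than in A. thaliana by 1.79-fold in the lyrata hybrid, 1.2-fold in the halleri hybrid, 2.49-fold in A. halleri and 3.64-fold in A. lyrata. Every difference is therefore relative to the average signal of its array, and the spike-in scale is given where it ends a call. The leaf markers RCA, LHCB4.1, PRK and SBPASE were bright in all 10 arrays, from 6505 to 73050. Of 74 markers listed by symbol 10 had a probe set, and some of those of other cell types differed from A. thaliana in a relative. The root marker PYK10 was at 116 and 5.85 in A. halleri and 93.7 and 136.5 in A. lyrata, against 3.19 and 3.04 in A. thaliana, and was called higher in A. lyrata (3.31 ± 0.96, adjusted p = 0.0207). FMA, of the guard cell lineage, was called higher in A. halleri (357 and 415) and A. lyrata (353 and 340) than in A. thaliana (145 and 132), and SPCH, of the same lineage, in A. halleri (130 and 99.3, against 3.77 and 3.97 in A. thaliana). MUTE, of that lineage too, did not pass the filter. SPCH passed it through A. halleri alone and PYK10 through A. lyrata alone, in each case the group where the gene is high. The trichome gene TRY was called lower in A. lyrata (277 and 212, against 999 and 706 in A. thaliana) and the phloem sugar transporter gene SWEET11 in A. halleri (1291 and 842, against 11870 and 6361 in A. thaliana). Their part in the species differences below was not tested. Probes match A. thaliana sequence, so sequence differences can lower a signal in the relatives and hybrids. Levels are not compared between genes, and a change in the share of cells that express a gene cannot be told apart from a change per cell.

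Probe sets were tested where some group's mean log2 signal corresponded to 104 or more, which 26 of the 39 genes did. Fold changes and log2 differences come from limma on log2(signal + 9.24), are given ± SE and understate changes of weak probe sets. A gene is called where its Benjamini-Hochberg adjusted p over all 16656 probe sets tested was below 0.05.

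**Figure D1:**
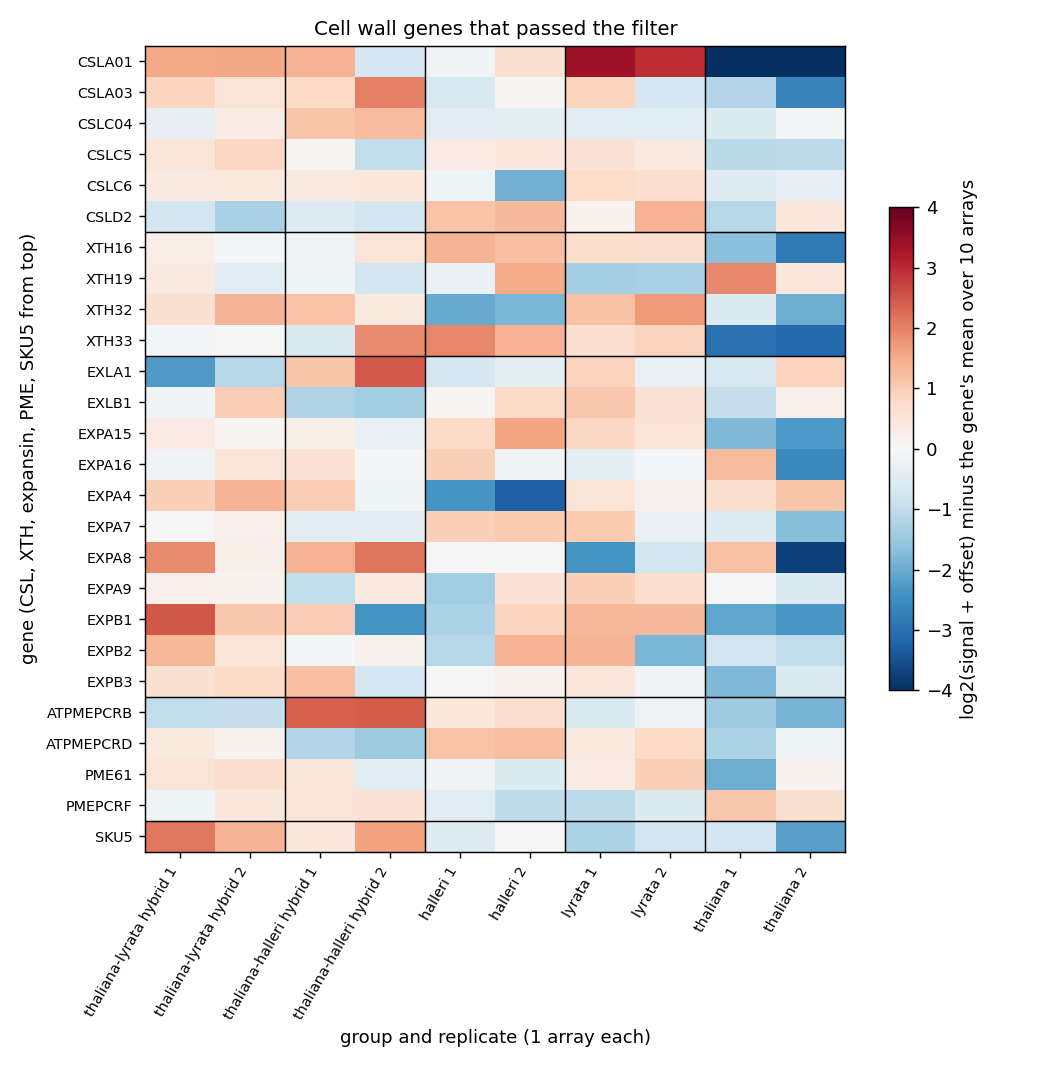
Signal of the 26 genes that passed the filter in each of the 10 arrays, as log2(signal + offset) minus the gene's mean over the arrays (colour, log2 units), with groups in columns and genes in rows. CSLA01 in A. thaliana lies beyond the colour scale, at -5.38 at the lowest, and the ATPMEPCRB and CSLC04 rows are highest in the halleri hybrid.

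A. halleri leaves and A. thaliana leaves differed in genes of every family but SKU5. The mannan synthase gene CSLA01, the xyloglucan enzymes XTH33 and XTH16 and the expansin EXPA15 were higher in A. halleri, by 47.6-fold, 25.9-fold, 11.4-fold and 9.24-fold, and the expansin EXPA4 was 12.9-fold lower. In all, 9 of the 39 genes were called higher and 2 lower, 15 more did not pass the test and 13 were not tested. The called share was 42.3% of the 26 genes tested, against 39.7% of all probe sets tested (23.5% higher, 16.2% lower), and without a filter it was 25.6% of the 39 genes, against 27.7%. The shares are near the background. The median log2 difference over all 39 genes was 1.08, against 0.46 over all 22746 probe sets. In 7 of the 9 genes called higher, A. thaliana was below the filter, so they entered the test through the other groups.

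With spike-in scaling 5 genes were called higher and 5 lower in A. halleri, 7 of them calls kept from the 11. The median was then 0.00 over the 39 genes, against -0.63 over all probe sets. For this and later alternative fits, other than those without a filter, the share of all probe sets called is not given. Their counts show only how the calls of the 39 genes changed. ATPMEPCRD, CSLC5, CSLD2 and EXPA7 lost their calls there, while CSLC04, CSLC6 and XTH32 were called lower. A fit with scale class as a term called 9 higher and 3 lower. Within the scaled class, where A. thaliana has replicate 1 alone and is assumed to vary like the other groups, the calls were 11 and 4. Only A. thaliana has arrays in both classes, so the class term also sets A. halleri against A. thaliana replicate 1 alone. For A. lyrata, below, it uses A. thaliana replicate 2 alone. The 2 fits thus give the same difference and are not separate support. XTH32 was called lower in both (-1.36), with A. thaliana replicates 1 and 2 at 1374 and 519. The count of 11 dropped to 7 without A. halleri replicate 2.

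In A. lyrata the largest difference from A. thaliana among the genes tested was in CSLA01, which was 362-fold higher on the offset scale. XTH33 was 14-fold higher, EXPB1 11.4-fold, XTH16 7.52-fold, EXPA15 6.59-fold and XTH32 6.52-fold. XTH19 was 5.62-fold lower and the pectin methylesterase gene PMEPCRF 3.14-fold lower. In all, 10 of the 39 genes were called higher and 2 lower, and 14 tested genes did not pass. The called share was 46.2% of the genes tested, against 43% of all probe sets tested (25.8% higher, 17.2% lower), and without a filter 28.2% of the 39 genes, against 31.6%. The shares again lie near the background, while the median log2 difference was 1.07 over the 39 genes, against 0.50 over all probe sets. A. thaliana was below the filter in 8 of the 10 genes called higher. Both comparisons use the same A. thaliana arrays.

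Spike-in scaling gave 4 higher and 5 lower calls in A. lyrata, 6 of them kept from the 12, with a median of -0.45 over the 39 genes, against -1.08 over all probe sets. CSLA03, EXPB1 and XTH32 lost their calls there, ATPMEPCRB, ATPMEPCRD and CSLC5 turned negative without being called, and CSLC04, EXPA4 and SKU5 were called lower. The class term gave 11 higher and 1 lower, and the unscaled class with A. thaliana replicate 2 alone gave 9 and 1.

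**Figure D2:**
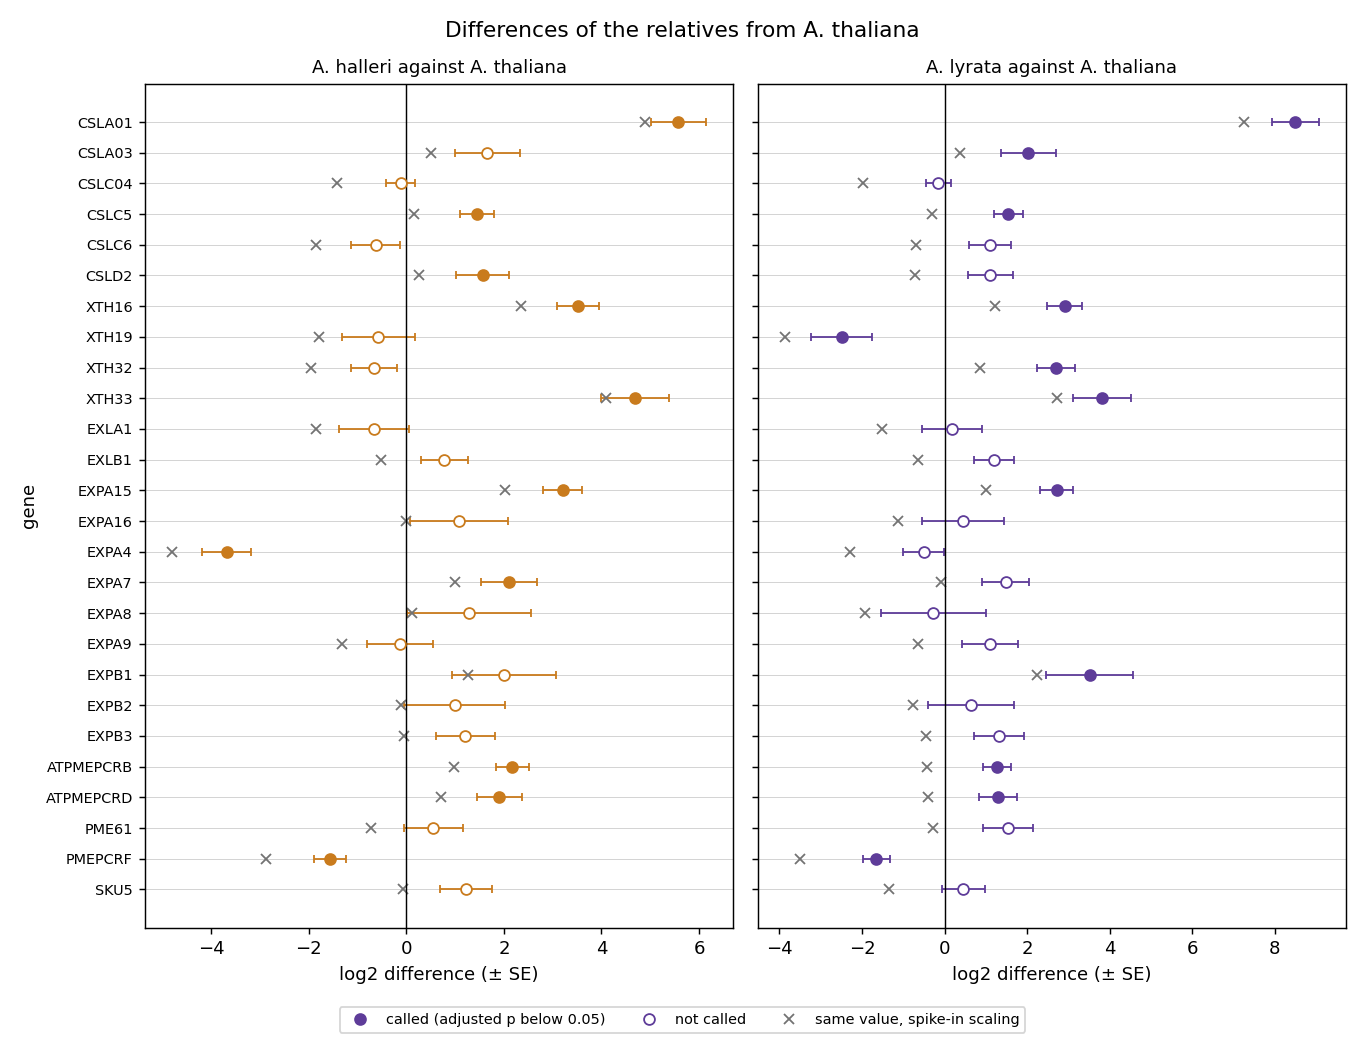
Log2 differences of A. halleri (left) and A. lyrata (right) from A. thaliana for the 26 genes tested, with limma's SE as bars, filled points for called genes and crosses for the same value with spike-in scaling. CSLA01, XTH33, XTH16 and EXPA15 lie to the right of 0 in both panels on both scales, and spike-in values lie to the left of the others.

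Between the perennial relatives themselves, 4 of the 39 genes were called, each as lower in A. halleri than in A. lyrata. XTH32 was 10.3-fold lower, EXPA4 9.05-fold, CSLA01 7.6-fold and CSLC6 3.31-fold. No gene was called higher on this scale. With spike-in scaling 3 were lower (XTH32, EXPA4 and CSLA01) and ATPMEPCRB was called higher (1.39, adjusted p = 0.0191), while CSLC6 lost its call (-1.16, adjusted p = 0.161). The called share was 15.4% of the 26 genes tested, against 15.5% of all probe sets (8.13% higher, 7.38% lower) and, without a filter, 7.69% of the 39 against 10.3%. The median difference over the 39 genes was 0.03, against -0.05 over all probe sets. The arrays of these species lie in different scale classes. With the class as a term 2 genes were called lower, XTH32 (-4.76, adjusted p = 0.00179) and EXPA16 (-3.22, adjusted p = 0.0403), the first of which was among the 4. That term is estimated from the 2 A. thaliana arrays alone, so their difference is subtracted from that between the relatives. A. thaliana replicates 1 and 2 were at 302 and 12.2 for EXPA16 and at 1374 and 519 for XTH32. Without the term EXPA16 differed by 0.642 ± 0.998, so its negative sign was set by the A. thaliana arrays. Without A. lyrata replicate 1 the count was 2.

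Among the 7 cellulose synthase-like genes, 3 were called higher in A. halleri and 3 in A. lyrata than in A. thaliana, and none lower. That is 50% of the 6 tested in each, against 39.7% and 43% of all probe sets. CSLA01 (AT4G16590) belongs to the CSLA family of glucomannan synthases. Its signal was 1420 and 1471 in the lyrata hybrid, 1312 and 305 in the halleri hybrid, 453 and 762 in A. halleri, 5234 and 3919 in A. lyrata, and 2.83 and 3.80 in A. thaliana. Both A. thaliana arrays were far below the other 8, and A. lyrata stood above A. halleri without overlap. The log2 difference from A. thaliana was 5.57 ± 0.57 in A. halleri (adjusted p = 0.000181) and 8.50 ± 0.57 in A. lyrata (adjusted p = 2.22e-05). A. thaliana is below the offset, and with an offset of 1 the differences were 7.10 and 10.045. A. halleri was lower than A. lyrata by -2.93 ± 0.57 (adjusted p = 0.00863), a call lost without A. lyrata replicate 1, without A. halleri replicate 1 and with the class as a block.

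CSLA03 (AT1G23480), of the same family, was at 389 and 124 in A. lyrata, against 85.2 and 24.4 in A. thaliana, and was called higher there (2.03 ± 0.67, adjusted p = 0.0336). The call was lost without A. thaliana replicate 2, without A. lyrata replicate 1 and without either lyrata hybrid array. It was also lost with quantile normalization, which gives all arrays the same distribution of values. In A. halleri, at 130 and 219, the difference of 1.66 ± 0.67 did not pass (adjusted p = 0.0720).

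The CSLC genes of xyloglucan backbone synthesis moved unequally. CSLC5 (AT4G31590) was at 1018 and 1104 in A. halleri and 1225 and 1050 in A. lyrata, against 377 and 390 in A. thaliana, with log2 differences of 1.44 ± 0.35 (adjusted p = 0.0107) and 1.54 ± 0.35 (adjusted p = 0.00712). Those 4 arrays lay above both of A. thaliana. The A. halleri call was lost without A. halleri replicate 2. CSLC6 (AT3G07330) was at 191 and 49.9 in A. halleri, against 361 and 341 in A. lyrata, a difference of -1.73 ± 0.50 (adjusted p = 0.0450). That call was lost with spike-in scaling, with an offset of 1, without a filter and without an intensity trend. It was also lost with the class or the replicate number as a block, and kept in 3 of the 10 fits with an array left out. The A. halleri arrays of CSLC6 lay well apart from each other and below both A. lyrata arrays. CSLC04 (AT3G28180) was not called between species on this scale, at 611 and 627 in A. halleri, 617 and 593 in A. lyrata and 567 and 792 in A. thaliana, and is described with the hybrids. CSLC12 did not pass the filter, with signals between 24.4 and 123. CSLD2 (AT5G16910), a gene of the family known for root hair growth, was at 1088 and 1200 in A. halleri, against 214 and 670 in A. thaliana (1.56 ± 0.55, adjusted p = 0.0449). That call was kept in 3 of the 10 fits with an array left out, and lost without a filter and without an intensity trend.

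Of the 9 XTH genes 4 passed the filter, and 2 of these were called in A. halleri and 4 in A. lyrata (3 higher, 1 lower), against 39.7% and 43% of all probe sets tested. Without a filter the same numbers are 22.2% and 44.4% of the 9 genes, against 27.7% and 31.6% of all probe sets. XTH33 (AT1G10550), predicted to be anchored in the plasma membrane, was at 82.8 and 87.2 in the lyrata hybrid, 55.2 and 347 in the halleri hybrid, 354 and 245 in A. halleri, 142 and 169 in A. lyrata, and 2.97 and 1.98 in A. thaliana. As for CSLA01, all 8 arrays of the hybrids and relatives lay above both A. thaliana arrays. The log2 difference of XTH33 was 4.70 ± 0.70 in A. halleri (adjusted p = 0.00110) and 3.81 ± 0.70 in A. lyrata (adjusted p = 0.00258), and with an offset of 1 they were 6.42 and 5.50.

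XTH16 (AT3G23730) showed the same order with a smaller gap. It was at 280 and 218 in the lyrata hybrid, 209 and 333 in the halleri hybrid, 599 and 534 in A. halleri, 380 and 358 in A. lyrata, and 65.9 and 24.5 in A. thaliana. A. halleri was higher than A. thaliana by 3.51 ± 0.43 (adjusted p = 0.000431) and A. lyrata by 2.91 ± 0.43 (adjusted p = 0.000920). The hybrid arrays lay between those of their parents.

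XTH32 (AT2G36870) belongs to the small XTH subgroup predicted to hydrolyse xyloglucan rather than rejoin it. It was at 497 and 566 in A. halleri, 4631 and 6673 in A. lyrata, and 1374 and 519 in A. thaliana. A. lyrata stood above the other species without overlap, by 2.70 ± 0.47 over A. thaliana (adjusted p = 0.00202), while A. halleri differed from A. lyrata by -3.37 ± 0.47 (adjusted p = 0.00191) and did not pass against A. thaliana (-0.66 ± 0.47, adjusted p = 0.277). Spike-in scaling took the A. lyrata difference from A. thaliana to 0.85 (adjusted p = 0.0984).

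XTH19 (AT4G30290) went the other way in A. lyrata, at 13.6 and 14.3 against 208 and 69.0 in A. thaliana (-2.49 ± 0.75, adjusted p = 0.0233). It passed the filter through A. thaliana alone, the group where it is high. The A. thaliana arrays stood well apart from each other, and the call was lost without A. thaliana replicate 1, without either A. lyrata array, with the class as a block (adjusted p = 0.130) and within the unscaled class (adjusted p = 0.179). In A. halleri it was at 38.4 and 153, overlapping A. thaliana. XTH18, its immediate neighbour on the chromosome, did not pass the filter, nor did XTH20, XTH21, XTH26 and XTH29. The signals of these 5 genes ran from 1.67 to 131, and the root hair gene XTH26 reached 8.14 at most.

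Expansins were the largest family. Of 18 genes 11 passed the filter, 2 were called higher and 1 lower in A. halleri, and 2 higher and none lower in A. lyrata. These are 27.3% and 18.2% of the 11 tested, against 39.7% and 43% of all probe sets, and the difference from the background was not tested. EXPA15 (AT2G03090) was at 283 and 234 in the lyrata hybrid, 265 and 180 in the halleri hybrid, 384 and 690 in A. halleri, 402 and 330 in A. lyrata, and 59.1 and 37.8 in A. thaliana. Both relatives and both hybrids lay above A. thaliana on all arrays. The log2 difference was 3.21 ± 0.40 in A. halleri (adjusted p = 0.000475) and 2.72 ± 0.40 in A. lyrata (adjusted p = 0.000910), and both calls held with spike-in scaling.

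EXPA4 (AT2G39700) set A. halleri apart. It was at 301 and 401 in the lyrata hybrid, 307 and 134 in the halleri hybrid, 21.9 and 7.44 in A. halleri, 227 and 171 in A. lyrata, and 240 and 336 in A. thaliana. The A. halleri arrays were below all others, with differences of -3.68 ± 0.50 from A. thaliana (adjusted p = 0.000683) and -3.18 ± 0.50 from A. lyrata (adjusted p = 0.00329). With the class as a block the second was not called (adjusted p = 0.0714).

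EXPB1 (AT2G20750), a beta-expansin, was at 385 and 140 in the lyrata hybrid, 129 and 4.23 in the halleri hybrid, 19.7 and 120 in A. halleri, 168 and 162 in A. lyrata, and 7.51 and 4.61 in A. thaliana. It was called in A. lyrata (3.52 ± 1.06, adjusted p = 0.0239) but not in A. halleri (2.002 ± 1.06, adjusted p = 0.154), and the difference between those 2 species did not pass (adjusted p = 0.367). The halleri hybrid arrays lay far apart. The A. lyrata call was lost without A. thaliana replicate 2 and without either A. lyrata array. It was also lost with quantile normalization and with the class as a block (adjusted p = 0.0512). EXPA7 (AT1G12560), an expansin of root hairs, was at 170 and 182 in A. halleri, against 55.9 and 19.3 in A. thaliana (2.103 ± 0.57, adjusted p = 0.0172). That call was lost without A. thaliana replicate 2, without either A. halleri array, with quantile normalization and with the class as a block.

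For some expansins the A. thaliana arrays disagreed. EXPA8 (AT2G40610) was at 1512 and 470 in the lyrata hybrid, 1059 and 1790 in the halleri hybrid, 406 and 402 in A. halleri, 69.97 and 237 in A. lyrata, and 919 and 21.6 in A. thaliana. Its difference between A. lyrata and A. thaliana was -0.28 ± 1.27, and turned to 2.18 without A. thaliana replicate 1 and to -2.73 without replicate 2, each of them called. EXPA16 was likewise at 302 and 12.2 in A. thaliana. Over the 39 genes, replicates lay more than 2-fold apart for 9 in the lyrata hybrid, 12 in the halleri hybrid, 10 in A. halleri, 14 in A. lyrata and 17 in A. thaliana. The expansins EXLB1, EXPA9, EXPB2 and EXPB3 were not called in any comparison as fitted here. EXLB1 was called higher in A. halleri within the scaled class (1.35, adjusted p = 0.0356) and in A. lyrata without A. thaliana replicate 2 (1.76, adjusted p = 0.0175), and lower in the halleri hybrid without A. thaliana replicate 1 (-1.62, adjusted p = 0.0296). EXPB3 was called higher in A. lyrata without A. thaliana replicate 2 (1.94, adjusted p = 0.0387) and without halleri hybrid replicate 2 (adjusted p = 0.0478). EXLA2, EXLA3, EXPA18, EXPA20, EXPA21, EXPA24 and EXPB5 did not pass the filter, with signals from 2.48 to 215.

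The pectin methylesterase genes all passed the filter, and 2 of the 4 were called higher and 1 lower in A. halleri, and the same numbers in A. lyrata. That is 75% of 4 genes, against 39.7% and 43% of all probe sets tested. ATPMEPCRB (AT4G02330, also PME41) was at 274 and 326 in A. halleri and 132 and 184 in A. lyrata, against 70.4 and 49.3 in A. thaliana. The differences were 2.18 ± 0.34 (adjusted p = 0.00147) and 1.28 ± 0.34 (adjusted p = 0.0149). The second was lost without A. thaliana replicate 2, without A. lyrata replicate 2, with quantile normalization and within the unscaled class. ATPMEPCRD (AT2G43050) was at 241 and 251 in A. halleri and 137 and 185 in A. lyrata, against 38.0 and 89.3 in A. thaliana, with differences of 1.91 ± 0.46 (adjusted p = 0.0105) and 1.31 ± 0.46 (adjusted p = 0.0438). The first was lost without A. thaliana replicate 1 and without A. halleri replicate 2. Among the fits with an array left out, the second was kept only without A. thaliana replicate 2. It was also lost with quantile normalization, without a filter, with the class or the replicate number as a block and within the unscaled class.

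PMEPCRF (AT5G53370) fell in both relatives. It was at 2417 and 3622 in the lyrata hybrid, 3931 and 4025 in the halleri hybrid, 2024 and 1329 in A. halleri, 1297 and 1856 in A. lyrata, and 5760 and 4149 in A. thaliana. The differences from A. thaliana were -1.57 ± 0.33 in A. halleri (adjusted p = 0.00529) and -1.65 ± 0.33 in A. lyrata (adjusted p = 0.00370), and both were called under all alternatives tried at the same threshold. PME61 (also PME35) was at 551 and 406 in A. halleri and 756 and 1180 in A. lyrata, against 150 and 668 in A. thaliana, and passed in neither species (0.56 ± 0.60, adjusted p = 0.476, and 1.54 ± 0.60, adjusted p = 0.0618). Without A. thaliana replicate 2 the difference of PME61 was 1.60 in A. halleri and 2.59 in A. lyrata. For A. halleri the scaled class alone gave the same 1.60. The class term likewise sets A. halleri against A. thaliana replicate 1 alone. These fits are therefore not separate support, since all rest on the A. thaliana array at 150 and leave out the level of 668.

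**Figure D3:**
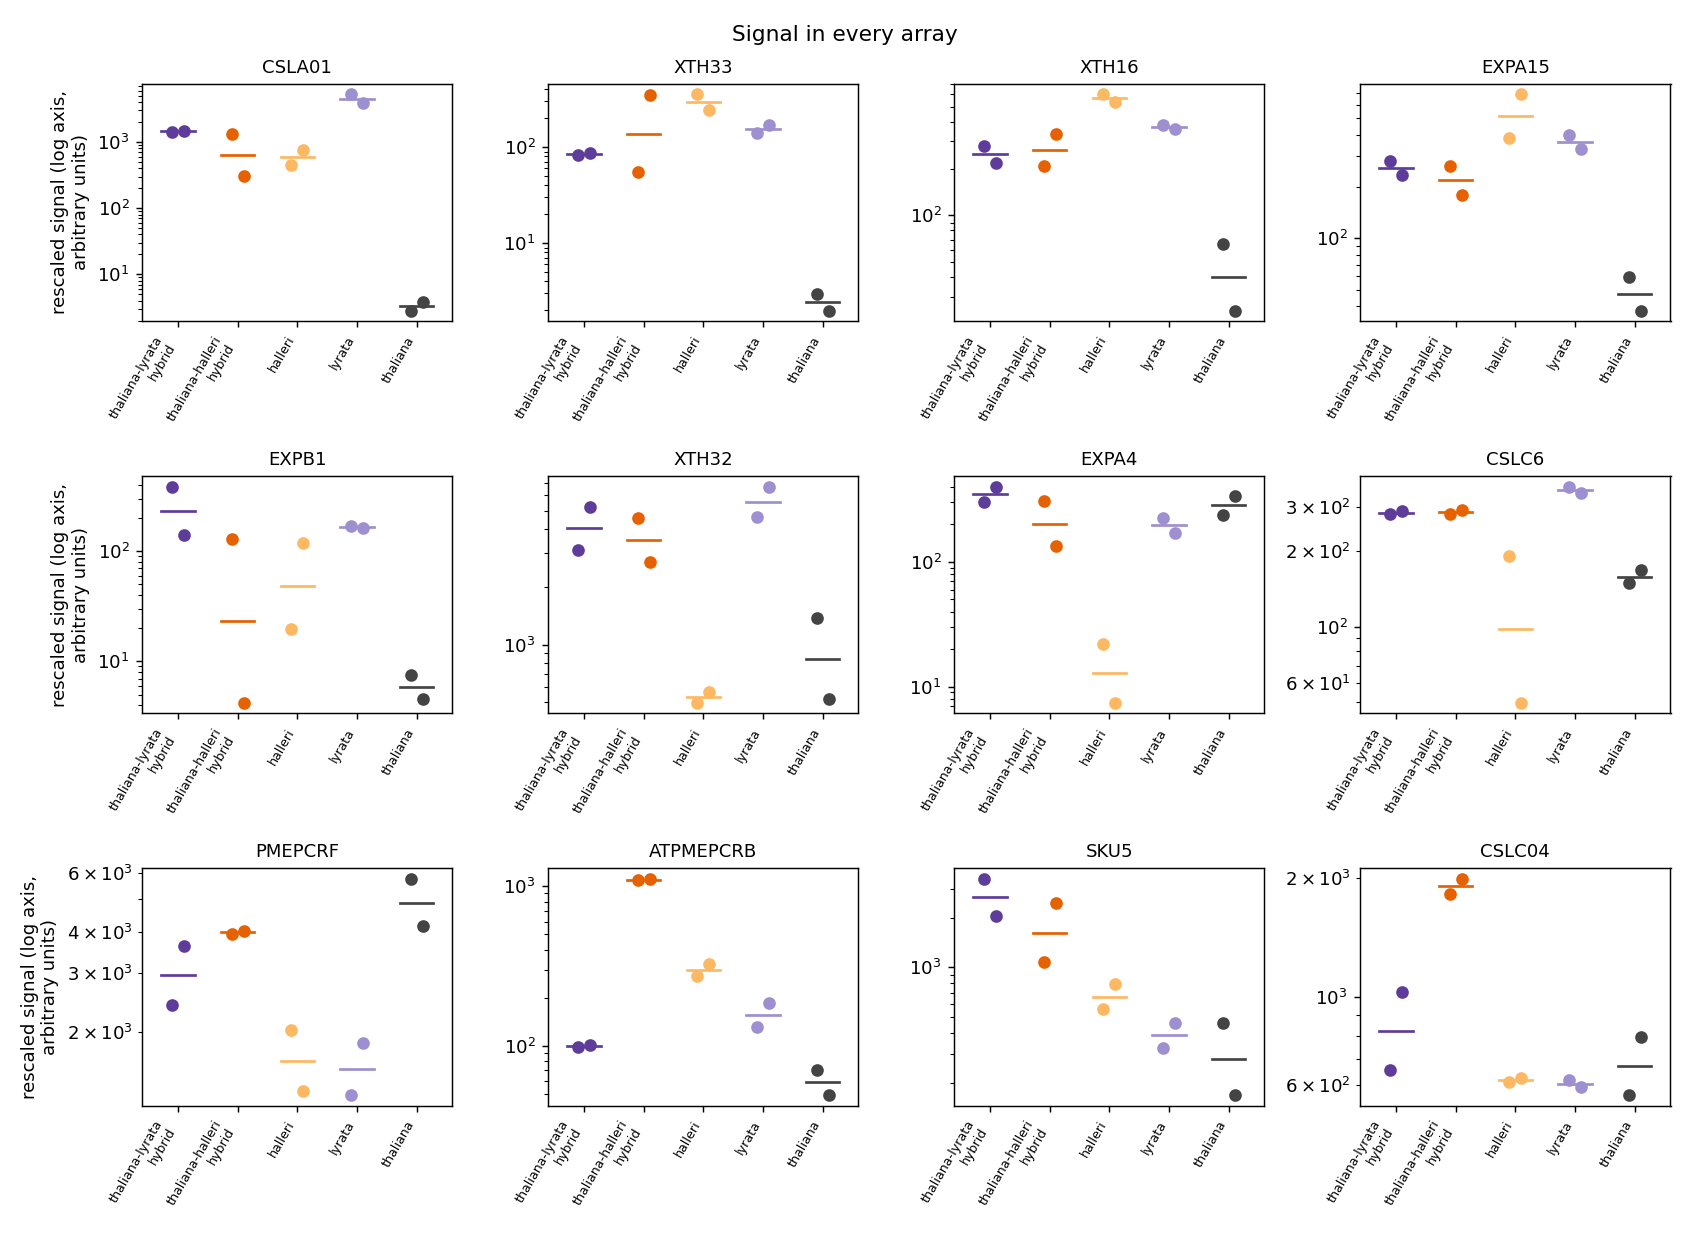
Rescaled signal (log axis, arbitrary units) of 12 cell wall genes in each array, with 2 points and their geometric mean as a line per group. A. thaliana lies lowest for CSLA01, XTH33, XTH16 and EXPA15, A. halleri for EXPA4, and the halleri hybrid lies highest for ATPMEPCRB and CSLC04.

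Few genes were called in the hybrids against the mid-parent level, the mean of both parents on the linear scale, and a missed threshold does not show that a gene was at that level. At an unadjusted p below 0.05 there were 4 of 26 in the lyrata hybrid and 10 of 26 in the halleri hybrid. Over all 16656 probe sets tested the counts were 3853 and 2711. In the lyrata hybrid SKU5 alone was called, as higher, which is 3.85% of the 26 genes tested, against 5.39% of all probe sets (1.67% higher, 3.72% lower). In the halleri hybrid ATPMEPCRB, XTH32 and CSLC04 were called higher and no gene lower, which is 11.5%, against 1.09% of all probe sets (0.396% higher, 0.69% lower). Without a filter the calls were again 1 and 3, which is 2.56% and 7.69% of the 39 genes, against 3.42% and 0.611% of all probe sets. Median differences over the 39 genes were 0.17 and 0.18, against -0.17 and -0.12 over all probe sets. These counts are small and move with single arrays. The first was 0 without lyrata hybrid replicate 1 and 4 without A. thaliana replicate 1. The second was 0 without either array of A. halleri or of the halleri hybrid, 1 without either array of A. lyrata or its hybrid, and 9 without A. thaliana replicate 1. With the class as a block they were 4 and 4, and within 1 class 3 and 3.

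SKU5 (AT4G12420) encodes a wall and plasma membrane glycoprotein related to multicopper oxidases and known from directional root growth in A. thaliana. It was at 3437 and 2051 in the lyrata hybrid, against 326 and 459 in A. lyrata and 458 and 169 in A. thaliana. Both hybrid arrays lay above all 4 parent arrays. The hybrid was 7.78-fold above the mid-parent level of 333 (2.96 ± 0.46, adjusted p = 0.0110), a call lost without hybrid replicate 1 (adjusted p = 0.138). In the halleri hybrid it was at 1076 and 2440, against 556 and 792 in A. halleri, and again above all 4 parent arrays. That deviation of 1.76 ± 0.47 missed the threshold (adjusted p = 0.110), and spike-in scaling brought it past (2.29, adjusted p = 0.0322). The difference between the hybrids' deviations was -1.20 ± 0.63 and did not pass (adjusted p = 0.534).

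ATPMEPCRB reached 1088 and 1112 in the halleri hybrid, over a mid-parent level of 179, and stood above every parent array. It was 5.89-fold higher (2.56 ± 0.32, adjusted p = 0.0150). In the lyrata hybrid it was at 97.8 and 101, between its parents (-0.10 ± 0.30, adjusted p = 0.876). The deviations of the 2 hybrids differed by 2.66 ± 0.43 (adjusted p = 0.0232), and no other gene of the set passed this test, in which 1.04% of all probe sets did (0.738% higher, 0.3% lower; 0.651% without a filter). This call was lost without any one array of A. halleri or of the hybrids, with adjusted p up to 0.168. The call against mid-parent was lost without either A. halleri array or either hybrid array, with adjusted p up to 0.193.

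XTH32 was at 4564 and 2694 in the halleri hybrid, above all parent arrays and 5.04-fold over a mid-parent level of 688 (2.33 ± 0.41, adjusted p = 0.0368). In the lyrata hybrid, at 3126 and 5223, it did not pass (0.34 ± 0.44, adjusted p = 0.700), and the hybrids' deviations did not differ beyond the threshold (2.0 ± 0.59, adjusted p = 0.190). CSLC04 was at 1820 and 1990 in the halleri hybrid, 2.92-fold over 645 (1.55 ± 0.26, adjusted p = 0.0318), and at 655 and 1029 in the lyrata hybrid. Among the fits with an array left out, the calls of XTH32 and CSLC04 in the halleri hybrid were kept without either A. thaliana array and lost in the other 8.

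**Figure D4:**
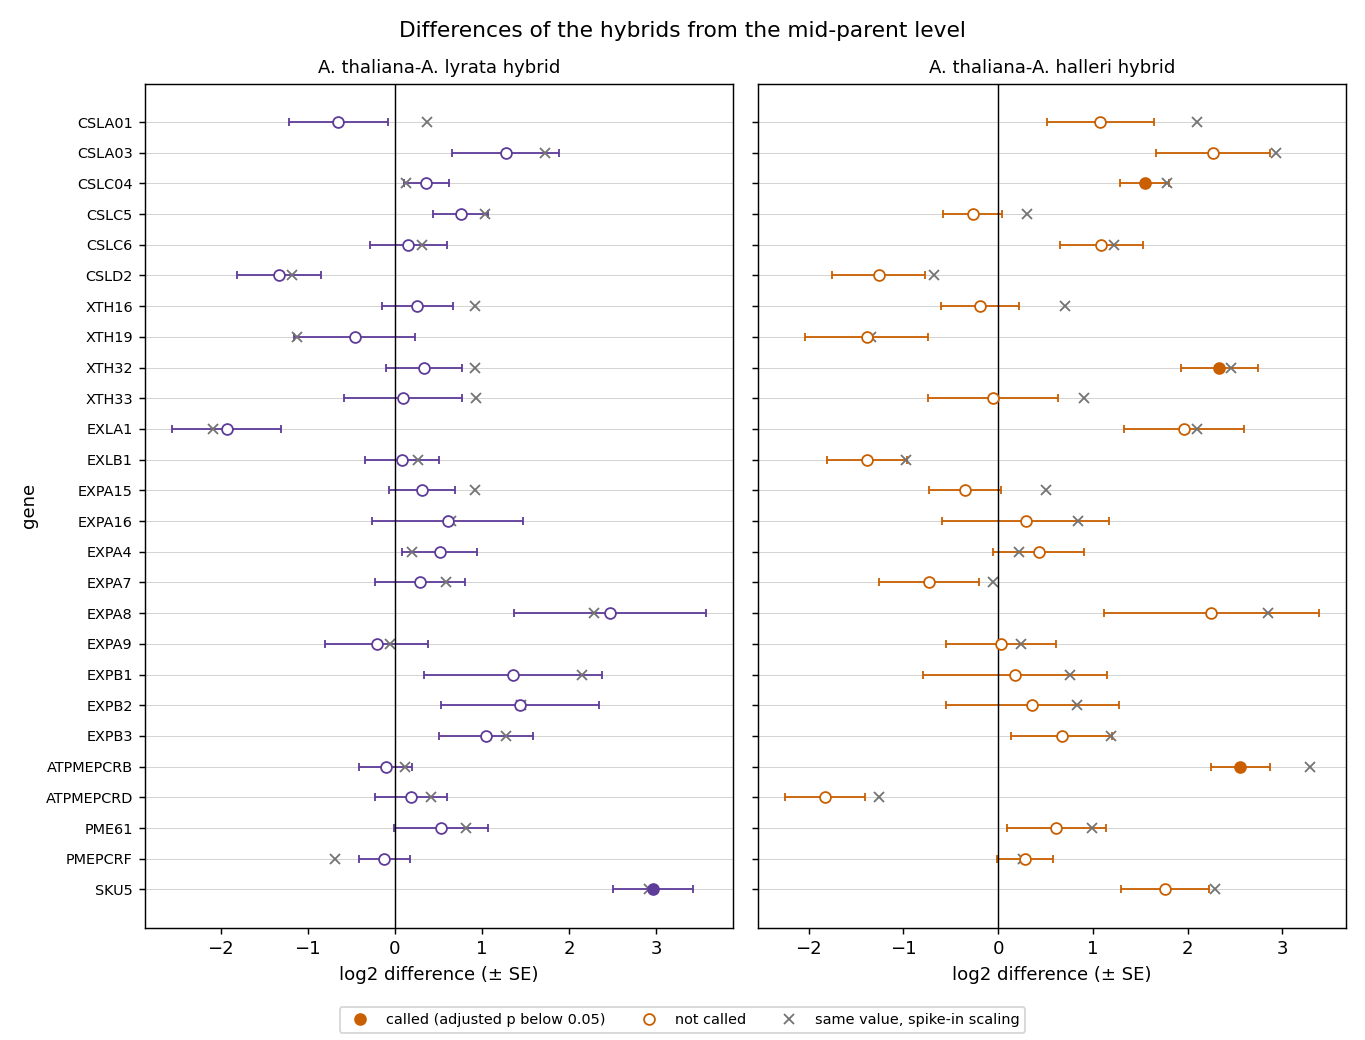
Log2 differences of each hybrid from its mid-parent level for the 26 genes tested, with SE as bars, filled points for called genes and crosses for spike-in scaling. SKU5 is the called gene in the lyrata hybrid, and ATPMEPCRB, XTH32 and CSLC04 are those in the halleri hybrid.

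Arrays outside the parents' range were also counted, over all 39 genes. In the lyrata hybrid 3 of the 39 genes (7.69%) had both arrays above all 4 parent arrays and 2 (5.13%) below, against 7.11% and 7.03% of all probe sets. In the halleri hybrid 10 (25.6%) lay above and 3 (7.69%) below, against 6.48% and 6.2%. The 10 were ATPMEPCRB, CSLA03, CSLC04, CSLC6, EXLA1, EXLA2, EXPA8, SKU5, XTH18 and XTH32, of which EXLA2 and XTH18 did not pass the filter. The expansin-like gene EXLA1 (AT3G45970) lay on opposite sides in the hybrids, at 10 and 33.5 in the lyrata hybrid and 195 and 508 in the halleri hybrid, against 49.4 and 62.1 in A. halleri, 166 and 67.3 in A. lyrata and 50.3 and 167 in A. thaliana. The hybrids' deviations of EXLA1 differed by 3.89 ± 0.80, short of the threshold (adjusted p = 0.0594), and passed it with spike-in scaling (adjusted p = 0.0244). EXLA3, next to EXLA1 on the chromosome, did not pass the filter.

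Where the parents were at least 4-fold apart, the hybrids' position was placed on a scale with A. thaliana at 0 and the other parent at 1, on the log2 scale. For 8 genes of the lyrata hybrid the median position was 0.835 and 0.804 in its 2 arrays, against 0.475 and 0.434 over 3508 probe sets tested, and 1 of the 8 lay nearer to A. thaliana. CSLA01 was at 0.804 and 0.810 and XTH33 at 0.781 and 0.798. Both genes, and EXPB1 at 7.51 and 4.61, lie below the offset of 9.24 in A. thaliana. Their positions, and the log2 mid-parent of CSLA01, therefore depend on the offset and not on a measured A. thaliana level. CSLA01, XTH33 and EXPB1 are among the 8 genes of each hybrid, so the medians include such positions. For 8 genes of the halleri hybrid the median position was 0.656 and 0.664, against 0.438 and 0.470 over 2984 probe sets. Of the 8, 2 lay nearer to A. thaliana. EXPA4 was one of these, at -0.03 and 0.281, and ATPMEPCRB lay outside the range at 1.841 and 1.856. In 7 of the 8 genes in each hybrid the other parent had the higher signal; the log2 scale places a linear mid-parent nearer to the brighter parent. Against the linear mid-parent CSLA01 was at -0.65 ± 0.57 from mid-parent in the lyrata hybrid and 1.08 ± 0.56 in the halleri hybrid, neither called (adjusted p = 0.538 and 0.383), while against a mid-parent on the log2 scale it was called higher in both (2.61 and 2.90, adjusted p = 0.0185 and 0.0216).

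Of 179 other cell wall genes listed by symbol, 8 had a probe set and 5 passed the filter. Of these, 3 were called higher and 1 lower in A. halleri than in A. thaliana, and 2 higher and 1 lower in A. lyrata, which is 80% and 60% of 5 genes, against 39.7% and 43% of all probe sets tested. HCT, an enzyme of lignin precursor synthesis, was at 481 and 547 in A. halleri and 513 and 492 in A. lyrata, against 2409 and 1360 in A. thaliana (-1.80 ± 0.31 and -1.83 ± 0.31). It was the one of these genes called against mid-parent, at 3488 and 2804 in the lyrata hybrid (1.43 ± 0.28, adjusted p = 0.0225). CCOAMT, annotated as a methyltransferase of the lignin pathway, was at 18880 and 15570 in A. halleri and 842 and 1179 in A. lyrata, against 218 and 36.6 in A. thaliana (7.39 ± 0.59 and 3.30 ± 0.59). IRX10, a xylan synthase gene, was higher in A. halleri (1.94 ± 0.34, adjusted p = 0.00234) and A. lyrata (2.04 ± 0.34, adjusted p = 0.00157). FER, a receptor kinase that senses the wall, was at 3597 and 2952 in A. halleri, against 962 and 978 in A. lyrata and 481 and 887 in A. thaliana. It was called higher in A. halleri than in A. thaliana and than in A. lyrata (2.30 ± 0.33, adjusted p = 0.000889, and 1.74 ± 0.33, adjusted p = 0.00764). The related kinase gene THE1 was not called in any comparison.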

How the data were processed

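The deposited values are MAS5 signal intensities of the Affymetrix ATH1 array, 1 per probe set, made with GCOS and MAS5 per the submitters' processing notes, in versions not given in the sources used here. The 10 arrays had been left on different scales, so each was rescaled to a mean of 500 after trimming 2% at each end. Intensities were then analysed as log2(signal + 9.24), where 9.24 is the 10th percentile of the rescaled values. Probe sets were tested where a group's mean log2 signal reached the 40th percentile (16656 of 22746, 73.2%). The model was limma 3.58.1 in R 4.3.3 with 5 group means and an intensity trend (5 residual degrees of freedom, median prior 4.72), tested on simulated data, with Benjamini-Hochberg adjustment in each of 6 comparisons. The mid-parent was the mean of both parents on the linear scale. Control probe sets (64) were left out. The platform annotation names 1 gene for 13513 probe sets, several for 503 and none here for 8730. Of the 13513, 13436 matched the gene table. All members could be named; per-array values were given for up to 5 called members in each direction of each comparison, ranked by log2 difference among those with no overlap between arrays, and always for CSLA01, EXPB1, XTH32, ATPMEPCRB and SKU5. Some further members were named with values after these were seen. The members and gene lists were chosen with earlier results of these data known.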

Additional observations from a re-analysis of the deposited data

Results flagged for a closer look

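ATPMEPCRB, a pectin methylesterase gene, was selected because the 2 hybrids departed from their mid-parent levels by different amounts in a test of the difference itself. The log2 difference from mid-parent was 2.56 ± 0.32 in the halleri hybrid and -0.10 ± 0.30 in the lyrata hybrid, a difference of 2.66 ± 0.43 (limma, adjusted p = 0.0232). Both halleri hybrid arrays, at 1088 and 1112, lay above all 4 arrays of its parents, and both lyrata hybrid arrays, at 97.8 and 101, lay between those of its parents. The adjusted p ranged from 0.00302 to 0.168 over the alternatives.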

How the results depend on the processing

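Of 32 calls of cell wall genes in the 6 comparisons, 13 kept their direction and stayed below an adjusted p of 0.05 in every alternative fit, 5 of 12 in A. lyrata against A. thaliana, 7 of 11 in A. halleri against A. thaliana and 1 of 4 in A. halleri against A. lyrata, and none in the hybrids. With each array left out in turn, 16 were kept. Spike-in scaling turned 3 differences of A. lyrata from A. thaliana, to -0.42 for ATPMEPCRB, -0.39 for ATPMEPCRD and -0.30 for CSLC5, since it lowers A. lyrata signals as a whole relative to A. thaliana. It also raised the calls to 5 in the halleri hybrid and to 3 for the difference between hybrids. With scale class as a block the calls were 2 in A. halleri against A. lyrata, 4 in the lyrata hybrid and 2 for the difference, and within 1 class 3 in the lyrata hybrid. Without an intensity trend 1 call was left in the halleri hybrid. Quantile normalization ended 5 calls, those of ATPMEPCRB, ATPMEPCRD, CSLA03 and EXPB1 in A. lyrata and of EXPA7 in A. halleri, each against A. thaliana. An adjusted p below 0.01 left 7 in A. halleri and 7 in A. lyrata against A. thaliana, and 0 in each hybrid and 0 for the difference. The mid-parent on the log2 scale gave 2 in the lyrata hybrid. Leaving out single arrays gave 7 to 13 calls in A. halleri and 8 to 14 in A. lyrata against A. thaliana, 2 to 4 in A. halleri against A. lyrata, 0 to 4 in the lyrata hybrid, 0 to 9 in the halleri hybrid and 0 to 3 for the difference. The causes of these changes were not tested.

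Replicate numbers were not treated as pairing the samples in the main fit. Replicate 1 minus replicate 2 was taken within each group over the probe sets tested, and these differences were correlated between groups. The correlations ran from -0.126 to 0.264 over 10 pairs of groups, 1 of them over 0.1. A weak effect shared by same-numbered samples is not excluded by this. With a replicate block the calls were 11 in A. lyrata and 11 in A. halleri against A. thaliana, 3 in A. halleri against A. lyrata, 1 in the lyrata hybrid, 2 in the halleri hybrid and 1 for the difference. With 2 arrays a group, the number of arrays limits the precision.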
